A study of Mus musculus with 6 samples.

Results

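The genes of the mitochondrial respiratory chain were compared between CP cells of the 46C-Ctrl line and CP cells of the line labelled Zhx1-KO. They were taken by symbol alone, as the Nduf, Sdh, Uqcr, Cox and Atp5 genes of nuclear DNA and the protein-coding genes of mitochondrial DNA. This gave 95 of the 25701 genes listed, 82 of nuclear and 13 of mitochondrial DNA. Symbols such as Cox4i1, Cox4i2 and Cox7a2l fall outside the pattern and are given apart below. All libraries are polyA RNA from cells differentiated from 46C, a mouse ESC line that carries a green fluorescent protein reporter at Sox1, and CP denotes the cardiac progenitor stage of cardiomyocyte differentiation. There are 3 libraries of 46C-Ctrl (genotype control) and 3 with the genotype label KO_ZHX1, made in the same line with a pair of guide RNAs near the ends of Zhx1. Whether the knockout line is 1 clone was not given in the sources used here, and the study states independent experiments for its statistics in general without naming these libraries. The p-values thus cover the spread among these libraries, which may be technical.

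The respiratory chain passes electrons from NADH through complex I (NADH dehydrogenase) and from succinate through complex II to ubiquinone, then through complex III and cytochrome c to complex IV, which reduces oxygen. Complexes I, III and IV pump protons, and complex V (ATP synthase) makes ATP from the gradient. Most subunits are encoded in the nucleus. The mitochondrial genome encodes 7 subunits of complex I, cytochrome b of complex III, 3 subunits of complex IV and 2 of complex V, transcribes nearly all of them as 1 long heavy-strand precursor, and encodes none of complex II. Heart muscle depends on this chain, and its genes are among the most abundant transcripts of cardiac cells.

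The values are normalised read counts, that is, gene counts divided by 1 factor per library. Summed over genes, the counts recovered from these values came to 13769967 to 15940874 per library. Zhx1 itself, on chromosome 15 (58047003 to 58076541, GRCm38), had 460, 181 and 457 normalised counts in 46C-Ctrl against 225, 325 and 308, a log2 fold change of -0.25 (SE 0.35, adjusted p = 0.579, limma). These values do not settle the labels, so the second group is called the libraries labelled Zhx1-KO. Without 46C-Ctrl 2 the log2 fold change of Zhx1 was -0.70 with an adjusted p of 0.0113. The library 46C-Ctrl 2 stood apart from the others of its group (a chi-square per gene of 17.1 and 18.4 against 5.84 between the others), and it was also the library with the highest share of mitochondrial reads, so the mitochondrial results are given with and without it. The transcriptome of the groups differed widely. In limma on log2(value + 1), 15372 genes had a mean of 10 or more and were tested, with Benjamini-Hochberg adjustment over all of them, and 52.0% passed an adjusted p of 0.05, 25.6% as higher and 26.4% as lower in the libraries labelled Zhx1-KO. The word called is used below for genes that passed this test.

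Some mitochondrial genes share their sequence with another row, since mouse chromosome 1 carries a nuclear copy of part of the mitochondrial genome that is nearly or wholly the same in sequence. The file lists 6 such copies as genes of their own, those of mt-Nd3 (Gm28438), mt-Nd4l (Gm10222), mt-Co1 (Gm29216), mt-Co2 (Gm28661), mt-Co3 (Gm28437) and mt-Atp6 (Gm10925). Over the first 681 bases of mt-Co2 and of its copy there were 0 mismatches, and the same held for mt-Co3 over 783 bases, mt-Atp6 over 678 and mt-Nd4l over 294. Over 345 bases mt-Nd3 and its copy differed at 1 position, T3C, counted from the first base of the gene, with the mitochondrial base first. The opening 90 bases of both pairs are shown because they decide which rows can be used, with the differing base in capitals. They come from the GENCODE M21 transcripts of GRCm38, as the sense strand of each gene (chrM:7013-7102 plus and chr1:24615476-24615565 minus for the first pair, chrM:9459-9548 plus and chr1:24613030-24613119 minus for the second).
mt-Co2: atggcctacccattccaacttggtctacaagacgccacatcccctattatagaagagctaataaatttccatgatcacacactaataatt
Gm28661: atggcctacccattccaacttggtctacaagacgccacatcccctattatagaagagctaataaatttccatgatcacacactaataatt
mt-Nd3: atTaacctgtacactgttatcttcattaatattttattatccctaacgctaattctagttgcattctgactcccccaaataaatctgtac
Gm28438: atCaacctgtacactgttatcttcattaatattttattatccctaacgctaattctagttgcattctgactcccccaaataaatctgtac

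Transcripts of the mitochondrial genome moved in different directions. In the libraries labelled Zhx1-KO all 7 complex I genes and mt-Cytb fell and mt-Co1 rose, so that 8 of the 13 were called lower, 1 higher and 4 were not called (mt-Co2, mt-Co3, mt-Atp6 and mt-Atp8). In bulk RNA, fewer cells with high levels and less RNA per cell cannot be told apart. Their median log2 fold change was -0.56, against 0.0088 over all genes tested. The groups did not overlap in 8 of the 13 (61.5%), against 60.8% of all genes, and 69.2% of the 13 were called, against 52.0%.

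Among the complex I genes, mt-Nd3 had the largest fold change. It had 2376, 4873 and 3193 normalised counts in 46C-Ctrl 1, 2 and 3 and 1132, 1307 and 1076 in those labelled Zhx1-KO, a log2 fold change of -1.51 (SE 0.23, adjusted p = 0.00106, limma). The groups did not overlap, and the highest value was that of 46C-Ctrl 2. When its copy was added, the values were 3004, 7338 and 3193 against 1470, 1594 and 1439, with a log2 fold change of -1.46 (adjusted p = 0.00486, limma) and of -1.05 without 46C-Ctrl 2 (adjusted p = 3.3e-05).

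Apart from mt-Atp8, genes without a listed copy gave the clearest values. The complex I gene mt-Nd1 had 26029, 34072 and 27982 normalised counts in 46C-Ctrl against 18882, 18652 and 18366 in those labelled Zhx1-KO, which is 63.5% of the control mean. Its log2 fold change was -0.65 (SE 0.09, adjusted p = 0.000789, limma). For mt-Nd2 the values were 12072, 16963 and 13032 against 9159, 9175 and 8660 (log2 fold change -0.62, SE 0.12, adjusted p = 0.0028, limma). In both genes every control library lay above every library of the other group, and the 3 libraries labelled Zhx1-KO were close together.

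The distal complex I genes showed falls of similar size. The values of mt-Nd4 were 25561, 32098 and 28585 against 20996, 20456 and 20784 (log2 fold change -0.46, SE 0.08, adjusted p = 0.00185, limma), and those of mt-Nd5 were 21298, 24492 and 21105 against 15036, 14677 and 15530 (-0.56, SE 0.07, adjusted p = 0.000271). Neither pair of groups overlapped. The gene mt-Nd4l, which overlaps mt-Nd4 and has a copy, was called by a narrow margin. Its 3503, 4433 and 2884 normalised counts in 46C-Ctrl overlapped the 2943, 2558 and 2481 of the other group (log2 fold change -0.42, adjusted p = 0.0429, limma). It was no longer called without 46C-Ctrl 2 (adjusted p = 0.075, limma), but with its copy added it had 3503, 4433 and 4036 against 2943, 2853 and 2964, with no overlap and an adjusted p of 0.00279, and of 0.00384 without 46C-Ctrl 2.

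The gene mt-Nd6 is the only protein-coding gene of the light strand, and is thus read from the other precursor. It had 3146, 3553 and 3319 normalised counts in 46C-Ctrl against 2026, 2184 and 2258 in those labelled Zhx1-KO, without overlap. Its log2 fold change was -0.63 (SE 0.06, adjusted p = 0.00014, limma). The end of mt-Nd6 overlaps that of mt-Nd5. The methods give strand-specific settings for the alignment and for FPKM, but the sources used here do not say whether these counts were made by strand. The ratio of mt-Nd6 to mt-Nd5 within a library was 0.148, 0.145 and 0.157 in 46C-Ctrl against 0.135, 0.149 and 0.145 in the other group (exact permutation p = 0.5, and 0.4 without 46C-Ctrl 2), and the groups overlapped. Without 46C-Ctrl 2, mt-Nd1, mt-Nd2, mt-Nd4, mt-Nd5 and mt-Nd6 were still called lower, with log2 fold changes of -0.53, -0.48, -0.38, -0.49 and -0.58 and adjusted p-values (limma) of 0.000127 to 0.00127.

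Cytochrome b, the mitochondrial subunit of complex III, gave the smallest adjusted p of the chain. The values of mt-Cytb were 37148, 43683 and 38565 normalised counts in 46C-Ctrl against 21110, 21720 and 21544 in those labelled Zhx1-KO. The second group stood at 53.9% of the first, a log2 fold change of -0.89 (SE 0.06, adjusted p = 2.74e-05, limma). Without 46C-Ctrl 2 it was -0.82 (adjusted p = 1.5e-05, limma).

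Complex IV departed from this pattern. The catalytic subunit gene mt-Co1, the second most abundant gene of every library, had 90619, 112471 and 87319 normalised counts in 46C-Ctrl against 129260, 118689 and 120806 in those labelled Zhx1-KO. The groups did not overlap, and the log2 fold change was 0.35 (SE 0.10, adjusted p = 0.0174, limma). It was 0.47 without 46C-Ctrl 2 (adjusted p = 0.000391, limma). When any of 46C-Ctrl 1, 46C-Ctrl 3 or Zhx1-KO 1 was left out the adjusted p lay between 0.0574 and 0.0624, in limma without trend it was 0.0538, and quantile normalization, which gives the same value to a gene of the same rank, set the change to 0. Since mt-Co1 rose where mt-Cytb fell, their ratio within a library, which no scaling between libraries can move, was 2.44, 2.57 and 2.26 in 46C-Ctrl against 6.12, 5.46 and 5.61 in the other group. By exact two-sided permutation p was 0.1, the smallest that 3 libraries against 3 allow (adjusted p = 0.275 over 11 such measures), and this ratio was chosen after the values were seen. Without 46C-Ctrl 2 the exact permutation p was 0.2, the smallest that this two-sided test allows with that library left out. With the copy of mt-Co1 added, the ratio was 2.59, 2.75 and 2.41 against 6.63, 5.90 and 6.06.

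The rows of mt-Co2, mt-Co3 and mt-Atp6 showed how reads were divided between a gene and its copy. For mt-Co2 the values were 15857, 55261 and 11479 normalised counts in 46C-Ctrl against 20255, 8860 and 18451 in those labelled Zhx1-KO. The spread was wide within each group, and wider in 46C-Ctrl. Its copy Gm28661 was listed at 22260, 0 and 26682 against 17327, 29178 and 17083, high where the gene was low. The sums were 38118, 55261 and 38160 against 37583, 38037 and 35534, and the coefficient of variation among the libraries labelled Zhx1-KO was 38.6% for the gene and 3.6% for the sum. As a sum, mt-Co2 was not called, with a log2 fold change of -0.22 (SE 0.14, adjusted p = 0.211, limma) and of -0.04 without 46C-Ctrl 2 (adjusted p = 0.452).

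The sums of mt-Co3 and its copy were 29498, 47091 and 31552 normalised counts against 35766, 33904 and 33195, with a log2 fold change of -0.04 (adjusted p = 0.848, limma). Without 46C-Ctrl 2 it was 0.17, with an adjusted p of 0.0286, so this call rests on leaving out that library. For mt-Atp6 of complex V the sums were 27668, 45216 and 30630 against 33099, 32549 and 29105 (log2 fold change -0.10, adjusted p = 0.656, limma; 0.12 and 0.215 without 46C-Ctrl 2). In all 3 sums 46C-Ctrl 2 held the highest value of the 6 libraries. The small gene mt-Atp8 has no listed copy, but it overlaps mt-Atp6 and starts between it and mt-Co2, which both have one. Whether its reads were divided too cannot be told from these values. It had 341, 300.2 and 413 normalised counts against 487, 488 and 377 (log2 fold change 0.36, SE 0.15, adjusted p = 0.0774, limma). Without 46C-Ctrl 2 its log2 fold change was 0.25 and its adjusted p 0.198 (limma).

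**Figure D1:**
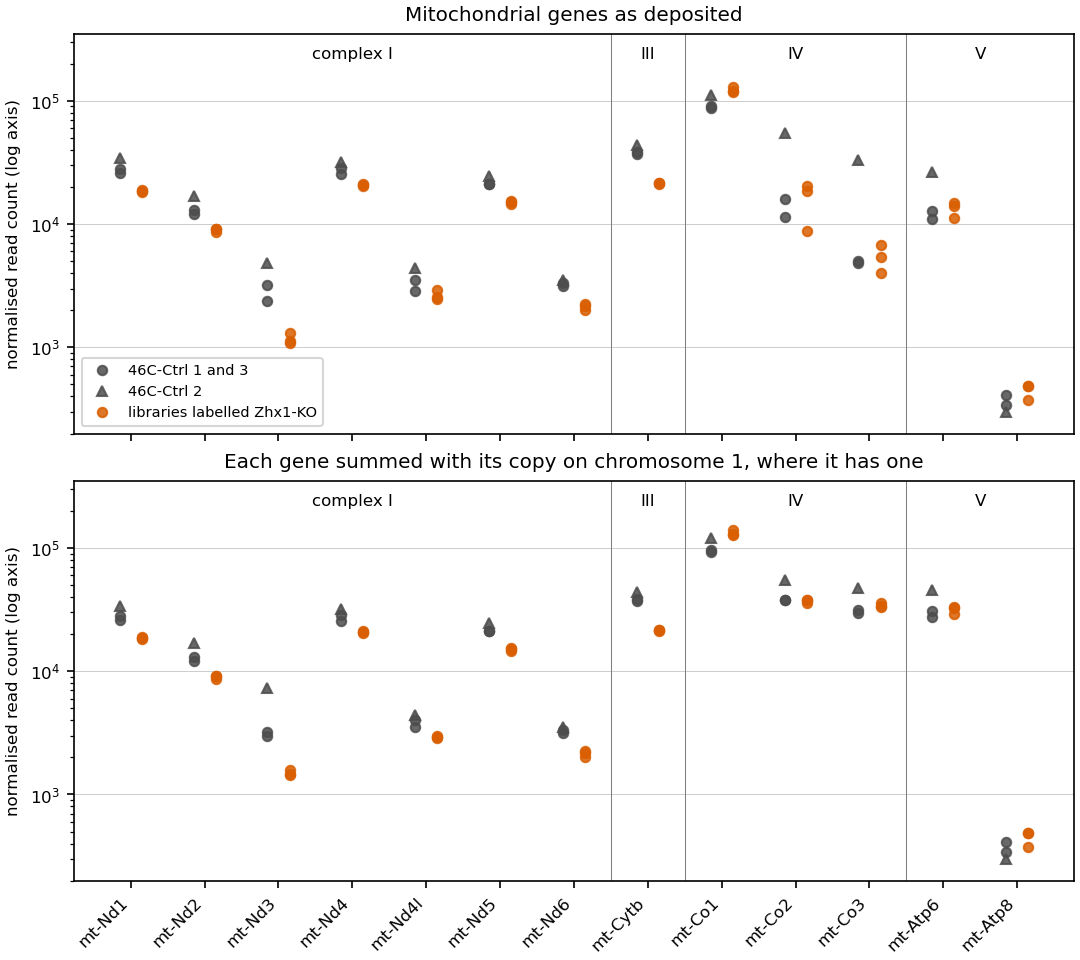
Normalised read counts (log axis) of the 13 mitochondrial genes in each library, as deposited (top) and summed with the copy on chromosome 1 where there is one (bottom). The points of mt-Co2, mt-Co3 and mt-Atp6 scatter in the upper panel and draw together in the lower, apart from 46C-Ctrl 2 (triangles), while the complex I genes and mt-Cytb lie lower and mt-Co1 higher in the libraries labelled Zhx1-KO (orange).

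**Figure D2:**
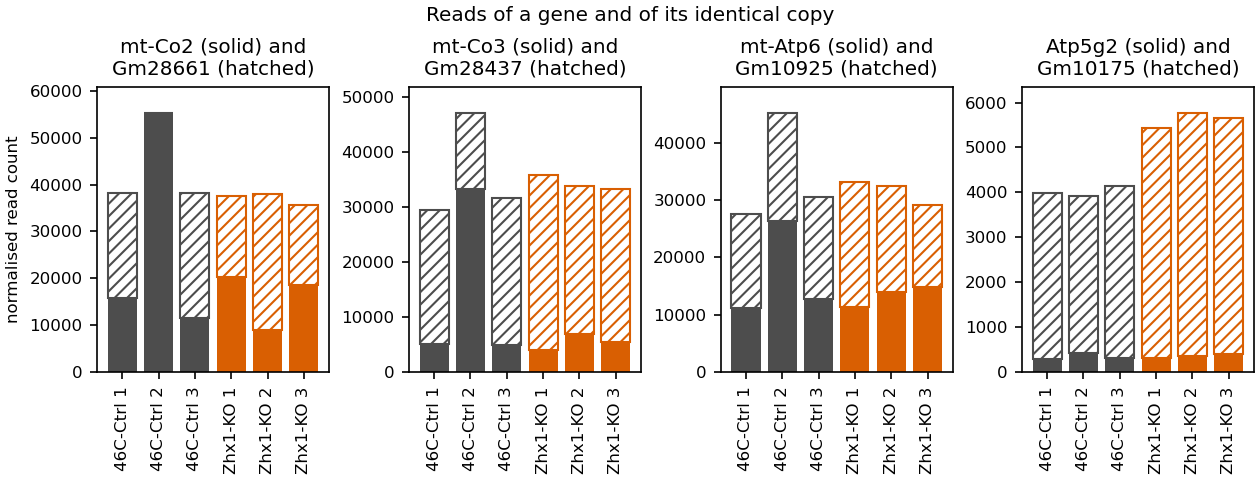
Normalised read counts of 4 genes (solid) stacked with those of a copy of identical sequence (hatched) in the 6 libraries, 46C-Ctrl in grey and the libraries labelled Zhx1-KO in orange. For the mitochondrial genes the division moves between libraries (mt-Co2 takes all of the 55261 reads of 46C-Ctrl 2), and for Atp5g2 nearly all of the height is in Gm10175.

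As a share of the library, the 13 mitochondrial genes took 1.76%, 2.73% and 1.76% of all normalised reads in 46C-Ctrl against 1.85%, 1.69% and 1.79% in those labelled Zhx1-KO. The means were 2.08% ± 0.564 and 1.78% ± 0.0779 (SD, n = 3 each; exact two-sided permutation p = 0.7, adjusted p = 0.77, and p = 0.8 without 46C-Ctrl 2). With the copies added the share was 2.24%, 3.03% and 2.29% against 2.44%, 2.29% and 2.28% (exact permutation p = 0.9, and 0.4 without 46C-Ctrl 2). The 7 genes without a listed copy, mt-Atp8 among them, took 0.87%, 1.08% and 0.914% against 0.632%, 0.618% and 0.624%, without overlap. The exact permutation p was 0.1, and 0.2 without 46C-Ctrl 2, each the smallest possible for its number of libraries. The total thus combined genes that fell with mt-Co1, which rose.

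The 82 nuclear genes took 0.869%, 0.927% and 0.914% of all normalised reads in 46C-Ctrl against 0.92%, 0.963% and 0.979% in those labelled Zhx1-KO (exact two-sided permutation p = 0.2). The ratio of summed mitochondrial to summed nuclear reads was 2.02, 2.95 and 1.92 against 2.01, 1.76 and 1.82 (exact permutation p = 0.2, adjusted p = 0.314). Without 46C-Ctrl 2 the exact p was 0.4. Neither measure separated the groups.

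**Figure D3:**
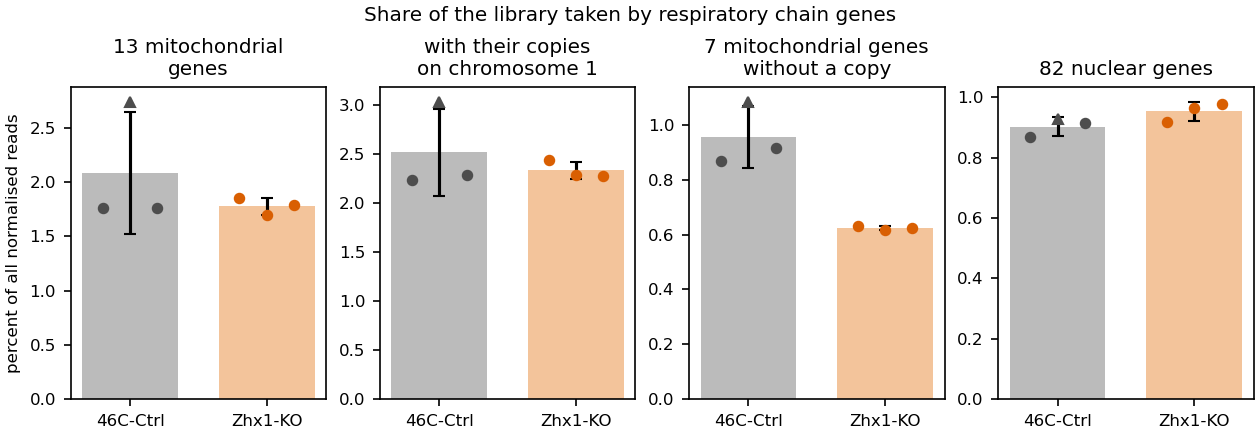
Percent of all normalised reads of a library taken by the 13 mitochondrial genes, by these with their copies, by the 7 mitochondrial genes without a listed copy, and by the 82 nuclear genes. Bars are means, error bars the SD of 3 libraries, points single libraries and triangles 46C-Ctrl 2. In the third panel the control libraries lie at 0.87% or more and those labelled Zhx1-KO at 0.632% or less.

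Markers of cell types moved with these changes. The CP markers Hand1, Hand2, Isl1, Mef2c, Nkx2-5 and Tbx5 summed to 7770 to 8527 normalised counts in 46C-Ctrl against 1081 to 1159 in those labelled Zhx1-KO, with 5 of 6 called lower. The 6 cardiomyocyte markers summed to 5616 to 6624 against 8539 to 9336, with 4 called higher and 1 lower. Endothelial markers summed to 1562 to 1659 against 4683 to 5115 (8 of 10 higher, 1 lower) and neural markers to 3609 to 4082 against 4991 to 5097 (7 of 10 higher, 1 lower). Endoderm markers summed to 45560 to 51611 against 18989 to 20538 (9 of 10 lower), fibroblast and matrix markers to 42636 to 50268 against 18783 to 20139 (6 of 10 higher, 3 lower) and the 10 blood markers to 402 to 543 against 284 to 315 (1 higher and 2 lower of 4 tested). The share of tested markers called ran from 75% (blood) to 90% (endothelial, endoderm and fibroblast) by list, against 52.0% of all genes. No marker was listed at 0 in every library. The part of these cell types in the respiratory chain values was not tested.

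Nuclear genes of the chain changed less. Of the 80 tested, 16 were called higher, 4 lower and 60 were not called, so that 25% were called against 52.0% of all genes. Their median log2 fold change was 0.049, and the median of its absolute size was 0.12, against 0.41 over all genes tested. The other 2 were not tested because their mean was under 10, namely the muscle isoform gene Cox6a2 (1.01 to 9.32 normalised counts) and Ndufa11b, listed at 0 in 5 libraries. Of all 93 members tested, 35 had groups that did not overlap (37.6%), against 60.8% of all genes. Under quantile normalization 27 nuclear members were higher and 3 lower.

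By complex, the medians of the nuclear log2 fold change ran from 0.11 in complex I (38 genes tested), 0.20 in complex II (4) and 0.18 in complex III (8) to 0.027 in complex IV (13) and -0.0093 in complex V (17). These medians are descriptions with no test. Between the 3 libraries labelled Zhx1-KO the median of complex I ran from 0.043 to 0.15 and that of complex III from 0.14 to 0.24. Without chromosome 11, which carries 2 of its called genes, complex III had a median of 0.046.

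**Figure D4:**
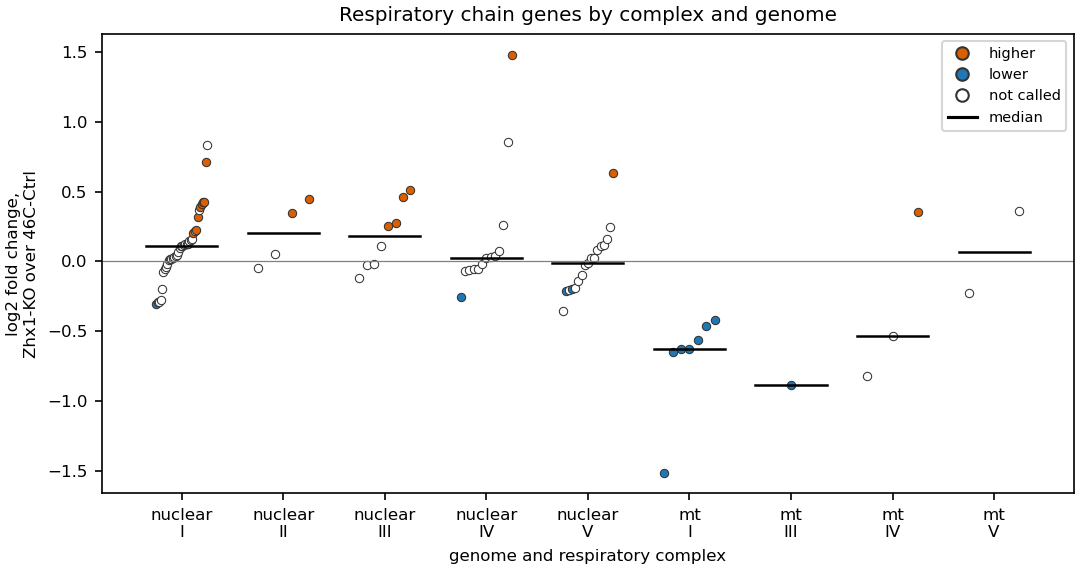
Log2 fold change (libraries labelled Zhx1-KO over 46C-Ctrl) of the 93 tested genes by genome and complex. Each point is a gene, orange where called higher, blue where called lower and white where not called, and black lines are medians. Nuclear genes gather near 0, and the mitochondrial complex I genes lie from -1.51 to -0.42.

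In complex I, 8 nuclear genes were called higher, 1 lower, and 29 were not called, which is 23.7% called against 52.0% of all genes. As the set was taken by symbol, it includes rows of pseudogenes such as Ndufb4c, which was not called. The higher genes were accessory subunits for the most part. The gene Ndufa7 had 1266, 1299 and 1217 normalised counts in 46C-Ctrl against 1634, 1654 and 1783 in those labelled Zhx1-KO (log2 fold change 0.42, SE 0.06, adjusted p = 0.000604, limma). Those of Ndufa6 were 873, 1096 and 964 against 1248, 1329 and 1310 (0.41, SE 0.09, adjusted p = 0.00523). Groups did not overlap in either gene.

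The gene Ndufs4, whose loss causes a severe form of complex I deficiency, showed the largest rise among the called nuclear genes of the complex. It had 251, 189 and 344 normalised counts against 450.5, 379 and 421, a log2 fold change of 0.71 (SE 0.20, adjusted p = 0.0195, limma). The groups were close but did not overlap, and without 46C-Ctrl 1, Zhx1-KO 1 or Zhx1-KO 3 the adjusted p was 0.0502 to 0.0615. Ndufv3, beside the NADH-binding site of complex I, had 523, 563 and 585 against 612, 825 and 828 (0.43, SE 0.12, adjusted p = 0.0221), and the call was lost without 46C-Ctrl 1, Zhx1-KO 2 or Zhx1-KO 3 (adjusted p of 0.0676 to 0.0764). Ndufb3, a membrane-arm subunit, had 457, 531 and 449 against 588, 634 and 656 (0.39, adjusted p = 0.00799, limma). The remaining called rises were those of Ndufs8 (0.32, called in 15 of 18 alternatives), Ndufc2 (0.22, in 12 of 18) and Ndufb9 (0.20, in 10 of 18). Without 46C-Ctrl 2 Ndufb9 had an adjusted p of 0.111 (limma).

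Ndufa9, an accessory subunit of the matrix arm, was the one nuclear complex I gene called lower. It had 1915, 2027 and 2138 normalised counts in 46C-Ctrl against 1569, 1638 and 1713, a log2 fold change of -0.30 (SE 0.06, adjusted p = 0.00408, limma). It lies on chromosome 6 (126821721 to 126849136), GRCm38. The core subunit gene Ndufs1, at 944, 1247 and 1068 against 886, 823 and 978, did not pass the test (-0.27, adjusted p = 0.0728, limma).

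Complex II, which is also the succinate dehydrogenase of the TCA cycle, is encoded by 4 nuclear genes. Sdhc and Sdhb were higher and the others were not called, which is 50% called against 52.0% of all genes. Sdhc, a membrane anchor, had 735, 603 and 703 normalised counts in 46C-Ctrl against 935, 936 and 907 in those labelled Zhx1-KO (log2 fold change 0.45, SE 0.08, adjusted p = 0.00287, limma). The iron-sulfur subunit gene Sdhb had 1128, 1208 and 1176 against 1375, 1494 and 1612 (0.35, SE 0.07, adjusted p = 0.00424). The flavoprotein gene Sdha, at 3220, 3081 and 3133 against 3009, 2995 and 3114 (-0.05, adjusted p = 0.387), and the other anchor gene Sdhd, at 1696, 1777 and 1873 against 1740, 1867 and 1942 (0.05, adjusted p = 0.511), had overlapping groups.

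In complex III 4 of 8 nuclear genes were called higher and none lower, which is 50% called against 52.0% of all genes, and 2 of the 4 (Uqcr10 and Uqcrq) lie on chromosome 11. The core gene Uqcrc2 had 1826, 2117 and 2083 normalised counts in 46C-Ctrl against 2632, 2771 and 2883 in those labelled Zhx1-KO (log2 fold change 0.46, SE 0.07, adjusted p = 0.00104, limma). Its partner Uqcrc1 had 3031, 3026 and 3244 against 3068, 3103 and 3025 (-0.02, adjusted p = 0.804). The small subunit gene Uqcr10 had 1253, 1296 and 1379 against 1601, 1936 and 2097 (0.51, SE 0.10, adjusted p = 0.00354). Uqcrh, the hinge protein beside cytochrome c1, had 1564, 1780 and 1592 against 1930, 1993 and 1965 (0.26, adjusted p = 0.00958), and Uqcrq had 674, 685 and 723 against 829, 802 and 890 (0.27, adjusted p = 0.0104). The mitochondrial partner of these genes, mt-Cytb, was at 53.9% of control.

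Complex IV was nearly level, with 1 nuclear gene higher, 1 lower and 11 not called, which is 15.4% called against 52.0% of all genes. Cox5a, a subunit on the matrix side, had 1702, 1669 and 1814 normalised counts in 46C-Ctrl against 1385, 1477 and 1481 in those labelled Zhx1-KO (log2 fold change -0.25, SE 0.06, adjusted p = 0.00691, limma). Abundant structural subunits were close to equal, such as Cox6a1 at 2849, 2962 and 2891 against 2707, 3003 and 2868 and Cox8a at 3136, 3216 and 3246 against 3022, 3606 and 3178.

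The isoform genes gave the largest relative rises, at low levels. Ndufa4l2, a paralogue of the complex IV subunit gene Ndufa4 that is known to be induced by hypoxia, had 18.5, 13.5 and 24.3 normalised counts in 46C-Ctrl against 63.5, 48.5 and 47.5 in those labelled Zhx1-KO (log2 fold change 1.48, SE 0.30, adjusted p = 0.00425, limma). Ndufa4 itself had 1955, 2396 and 2153 against 1933, 2073 and 2190 (-0.07, adjusted p = 0.534). Cox4i2, the hypoxia and lung isoform of subunit IV and not one of the 95, had 24.4, 38.3 and 38 against 99.8, 108 and 90.7 (1.57, SE 0.23, adjusted p = 0.000979). Its ubiquitous counterpart Cox4i1 had 4436, 4418 and 4560 against 4523, 4784 and 4658 (0.06, adjusted p = 0.3). Per kilobase of transcript, Cox4i2 reached a mean of 137 normalised counts in the second group where Cox4i1 reached 6248, so the common isoform remained by far the more abundant.

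Other isoforms did not pass the test. The heart and muscle isoform gene Cox7a1 had 18.5, 47.6 and 35.9 normalised counts against 57.4, 52.6 and 65.1 (log2 fold change 0.86, SE 0.35, adjusted p = 0.0735, limma), and was called without 46C-Ctrl 2 (adjusted p = 0.0257). The testis isoform gene Cox6b2 had 299, 312 and 272 against 336, 418 and 314 (0.26, adjusted p = 0.113). The common forms Cox7a2 (adjusted p = 0.773), Cox6b1 (0.31) and Cox7b (0.714) had overlapping groups.

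In complex V 1 nuclear gene was higher, 2 were lower and 14 were not called, which is 17.6% called against 52.0% of all genes. The catalytic beta subunit gene Atp5b had 18332, 19111 and 18867 normalised counts in 46C-Ctrl against 16202, 16714 and 16209 in those labelled Zhx1-KO (log2 fold change -0.20, SE 0.04, adjusted p = 0.00516, limma). The alpha subunit gene Atp5a1, its partner in the catalytic head, had 13358, 12710 and 14198 against 14179, 15144 and 15619 (0.16, SE 0.06, adjusted p = 0.0519). These abundant genes thus had fold changes of opposite sign, and that of Atp5a1 did not pass. Atp5h, a subunit of the peripheral stalk, had 1850, 1557 and 2044 against 2628, 2824 and 2944 (0.63, SE 0.10, adjusted p = 0.00126).

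The c-ring of complex V is built from 1 protein that 3 nuclear genes encode. Atp5g3 had 3421, 3359 and 3417 normalised counts in 46C-Ctrl against 2787, 3075 and 2946 in those labelled Zhx1-KO (log2 fold change -0.21, SE 0.05, adjusted p = 0.00907, limma), and under quantile normalization it was not called (adjusted p = 0.0589). Atp5g1 had 1417, 1406 and 1516 against 1362, 1546 and 1517 (0.03, adjusted p = 0.763). The row of Atp5g2, with 292, 410 and 306 against 318, 353 and 407 (0.11, adjusted p = 0.587), held only 7.22% of the reads that fall on its sequence. The rest stood under Gm10175, a pseudogene on chromosome 7 that is identical over 645 bases, with 3684, 3508 and 3841 against 5110, 5413 and 5261 (0.52, SE 0.05, adjusted p = 0.000112). Their sums were 3976, 3918 and 4147 against 5428, 5766 and 5667, without overlap, a log2 fold change of 0.49 (SE 0.05, adjusted p = 9.92e-05). Which of the loci these reads came from cannot be told from the files.

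The same summing, added after the values were seen, was applied to the 6 nuclear members with a copy annotated as a pseudogene on another chromosome. Atp5l, a membrane subunit of complex V, had sums of 1248, 1466 and 1407 against 1057, 1138 and 1117 (log2 fold change -0.31, SE 0.07, adjusted p = 0.00846, limma), where its own row had an adjusted p of 0.0611. Ndufb4 with Ndufb4c (a pseudogene that is itself among the 95), Ndufa12 and Cox7c remained uncalled, and Atp5h remained called. Several nuclear members also share exons with a neighbour at their own locus, such as Ndufb5 with Mrpl47, and their values may hold reads of both.

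**Figure D5:**
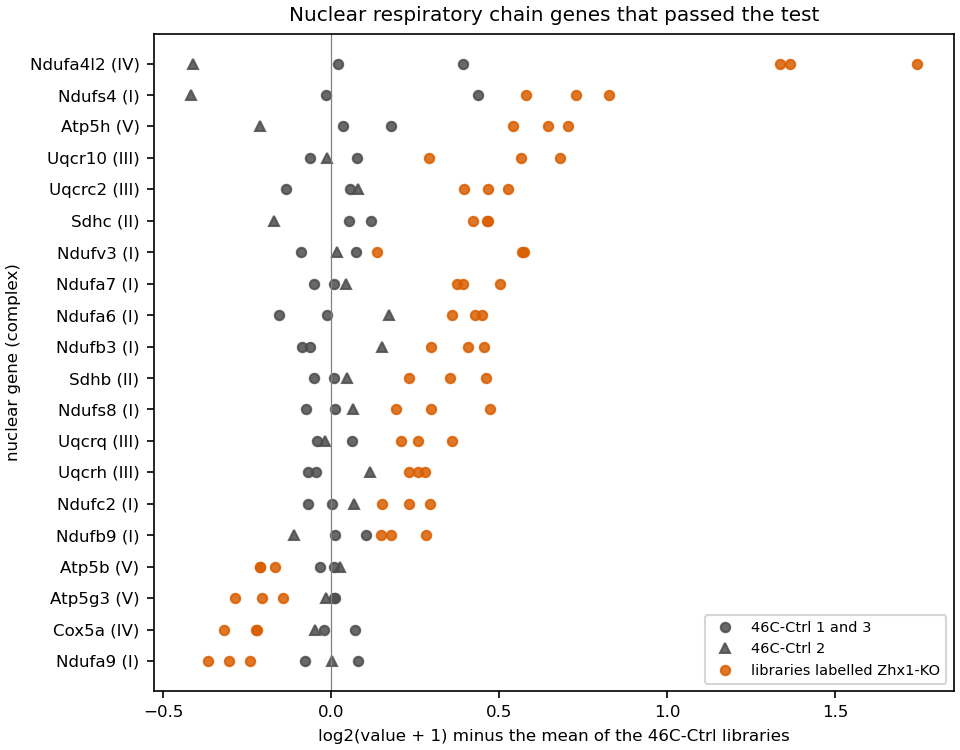
The 20 nuclear genes that passed the test, with the complex in brackets, as log2(value + 1) of each library minus the mean of the 46C-Ctrl libraries. Grey points and triangles (46C-Ctrl 2) are control libraries and orange points the libraries labelled Zhx1-KO, and the colours do not overlap in any of these genes.

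Chromosome 11 was higher as a whole in the libraries labelled Zhx1-KO, with a median log2 fold change of 0.42 over its 1185 genes tested. It carries 4 nuclear members, Atp5h, Uqcr10, Uqcrq and Atp5g1, of which 3 were called higher, with a median of 0.39. The share called was thus 75%, against 66.6% of all genes tested on this chromosome. The 72 members placed on other chromosomes had a median of 0.061, and 13 were called higher and 4 lower. Their share called was 23.6%, against 51% of all genes placed there. The part of the chromosome in these 3 rises was not tested.

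The nuclear members shared motifs near their start sites. The RefSeq table of promoters (GRCm38.p6, 250 bases before to 50 after each start) held 65 of the 82. Letters bound by factors known to drive respiratory genes were searched on both strands, GCGCANGCG for Nrf1, CCGGAAG for the ETS factor Gabpa and AAGATGG for Yy1. The Nrf1 letters were in 30.8% of the members' promoters against 7.03% of all 27025 genes, the ETS letters in 26.2% against 9.93% and the Yy1 letters in 16.9% against 7.28%. At least 1 of them was in 61.5% of members, against 21.4% of all genes. The 27025 genes were not limited to those tested here. Of the 11 members called higher 6 held one (54.5%), of the 4 called lower 2 (50%) and of the 50 not called 32 (64%). The 150 bases before the start of 2 genes called higher are shown as examples, with matched letters in capitals, Atp5h at chr11:115419920-115420069 with an Nrf1 and an ETS match, and Uqcrh at chr4:116075071-116075220 with an ETS match, both on the minus strand.
Atp5h: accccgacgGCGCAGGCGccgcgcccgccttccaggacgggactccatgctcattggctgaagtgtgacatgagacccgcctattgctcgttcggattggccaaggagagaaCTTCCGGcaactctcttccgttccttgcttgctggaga
Uqcrh: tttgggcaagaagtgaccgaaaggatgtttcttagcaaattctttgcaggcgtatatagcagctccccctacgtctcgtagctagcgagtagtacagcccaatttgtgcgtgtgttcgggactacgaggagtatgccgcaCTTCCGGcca

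Of 27 tested genes that express the mitochondrial genome, 8 were higher, 6 lower and 13 not called, with a median log2 fold change of 0.13. The share called was 51.9%, near the 52.0% of all genes. Polg, the catalytic subunit of the mitochondrial DNA polymerase, had 3107, 2599 and 2935 normalised counts in 46C-Ctrl against 922, 1086 and 859 in those labelled Zhx1-KO (log2 fold change -1.59, SE 0.10, adjusted p = 1.39e-05, limma). Its accessory subunit gene Polg2 rose from a mean of 78.1 to 148 (0.94, adjusted p = 0.00344), and lies on chromosome 11. Mterf3, a negative regulator of mitochondrial transcription, had 428, 361 and 408 against 251, 213 and 227 (-0.79, adjusted p = 0.000572), and Top1mt, the mitochondrial topoisomerase, had 126, 137 and 129 against 285, 249 and 245 (0.99, adjusted p = 0.000262). The polymerase gene Polrmt (0.02, adjusted p = 0.881) and Tfam, which packages mitochondrial DNA (0.13, adjusted p = 0.0685), did not pass. Of the ribosomal RNA genes, which polyA libraries sample poorly, mt-Rnr2 had 2340, 3321 and 2501 against 1665, 1577 and 1773 (-0.69, adjusted p = 0.00257, and -0.53 with 0.000716 without 46C-Ctrl 2). For mt-Rnr1 the values were 1213, 1963 and 1392 against 1730, 1715 and 1747 (0.22, adjusted p = 0.283). Without 46C-Ctrl 2 it was called higher (0.41, adjusted p = 0.00269, limma), so its call rests on that library.

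Of 13 tested regulators of nuclear respiratory genes, 5 were lower, 1 higher and 7 not called (median -0.27), so that 46.2% were called against 52.0% of all genes. Gabpb2, a partner of Gabpa, had 885, 648 and 928 normalised counts against 487, 419 and 475 (log2 fold change -0.82, adjusted p = 0.00191, limma). The coactivator gene Pprc1 had 1273, 1274 and 1432 against 990, 897 and 899 (-0.51, adjusted p = 0.000714), and Yy1 had 2952, 2947 and 2914 against 2415, 2387 and 2506 (-0.27, adjusted p = 0.00148). Gabpa (-0.06, adjusted p = 0.586) and Nrf1 (0.37, adjusted p = 0.105) did not pass.

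Among assembly factors, 6 of 17 for complex I were higher and 2 lower, 2 of 6 for complex III higher and none lower, and 7 of 22 for complex IV higher and 2 lower. The shares called were 47.1%, 33.3% and 40.9%, each under the 52.0% of all genes. Ndufaf5 had 115, 106 and 121 normalised counts in 46C-Ctrl against 180, 198 and 220 (log2 fold change 0.80, adjusted p = 0.0015, limma), Ndufaf7 had 235, 203 and 224 against 332, 383 and 371 (0.71, adjusted p = 0.000824), and Ndufaf4 had 378, 311 and 401 against 221, 216 and 236 (-0.69, adjusted p = 0.00187). Tmem177, needed for the Cox2 subunit, had 177, 206 and 170 against 326, 301 and 318 (0.78, adjusted p = 0.000714). Of the 7 higher complex IV factors 5 lie on chromosome 11, Sco1 (0.38), Cox10 (0.36), Cox11 (0.48), Coa3 (0.40) and Taco1 (0.65), and off it 2 were higher and 2 lower. The complex III factor Ttc19 (0.77) lies on chromosome 11 too.

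For complex V, 2 of 3 assembly factors were lower, Atpaf2 (-0.50, adjusted p = 0.0127, limma) and Atpaf1 (-0.84, adjusted p = 0.048, called in 9 of 18 alternatives), chaperones of the alpha and the beta subunit in that order, and Tmem70 was not called (0.17, adjusted p = 0.199). For complex II 1 of 4 was higher (Sdhaf3, 0.84, adjusted p = 0.00503), 1 lower (Sdhaf1, -0.41, adjusted p = 0.0171) and Sdhaf2 was among those not called (-0.86, adjusted p = 0.0653). The shares called were 66.7% for the complex V factors and 50% for those of complex II, against 52.0% of all genes. Of the other subunits and associated proteins, 5 of 12 tested were higher and 1 lower, a share of 50% called. Higd2a, which promotes the joining of complexes III and IV, had 576, 547 and 610 normalised counts against 748, 797 and 778 (0.42, adjusted p = 0.00144), and Cox7a2l, which holds these complexes together, had 1332, 1423 and 1460 against 1753, 1810 and 1853 (0.36, adjusted p = 0.00113). Cycs, the electron carrier cytochrome c, was the one that fell (-0.34, adjusted p = 0.0148).

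Enzymes that feed the chain were measured beside it. Of 18 tested genes of pyruvate dehydrogenase and the TCA cycle, 8 were higher, 2 lower and 8 not called (median 0.16), a share of 55.6% called against 52.0% of all genes. Ogdh, the first subunit of the 2-oxoglutarate dehydrogenase, had 1503, 1349 and 1524 normalised counts in 46C-Ctrl against 2412, 2558 and 2405 in those labelled Zhx1-KO (log2 fold change 0.75, adjusted p = 5.02e-05, limma), and lies on chromosome 11. Idh2 had 2244, 2020 and 2289 against 2998, 3112 and 3052 (0.49, adjusted p = 0.000339), and Suclg2 1341, 1229 and 1152 against 1570, 1670 and 1730 (0.42, adjusted p = 0.00188). Of the 13 genes of ubiquinone synthesis 4 were higher and 1 lower, a share of 38.5% called against 52.0% of all genes. Coq5 stood at 0.47, Coq8b at 0.80 and Coq10b at -0.93 on the log2 scale. Of 7 tested carriers and channels of the mitochondrial membranes 4 were lower and 1 higher, a share of 71.4% called against 52.0% of all genes. Slc25a3, which brings in the phosphate for ATP synthase, had 7307, 7489 and 7726 against 5714, 6049 and 5724 (-0.37, adjusted p = 0.000398), and the outer membrane channel genes Vdac2 (-0.27, adjusted p = 0.000898) and Vdac1 (0.39, adjusted p = 0.000426, on chromosome 11) differed in sign.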

How the data were processed

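PolyA RNA-seq of 3 46C-Ctrl and 3 Zhx1-KO CP cell libraries was analysed. According to the methods and the submitters' notes, reads were trimmed with cutadapt 1.18, aligned to GRCm38 (GENCODE M19) by HISAT2 2.1.0 and quantified as FPKM by StringTie 1.3.4d. Cufflinks and DESeq2 are named too. The deposited values are a signal per gene, namely counts divided by 1 factor per library. The sources used here do not name the counting program. Within a library all values (100%, to 0.01 of a step) were multiples of a single step. These steps gave whole reads for edgeR and DESeq2 as alternatives.

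The members, gene lists and tests were chosen with earlier results of these data known. Genes with a mean of 10 or more were tested on log2(value + 1) in limma 3.58.1 (R 4.3.3, trend on the mean), so fold changes of low genes are understated. Single values per library were compared by exact two-sided permutation, adjusted over 11 measures. Alternatives were other pseudocounts, filters, scalings, tests (edgeR 4.0.16, DESeq2 1.42.0), each library left out, the replicate number as a block, and summing of copies. Copies matched by blastn at 98% or more over at least 100 bases of GENCODE M21 transcripts. Positions are from GENCODE M21, a later release on the same build, for 91 members. Ndufa4 and Ndufa4l2 were placed in complex IV. On simulated data for this comparison, limma called 58 of 100 genes changed 2-fold, 38 of 97 changed 1.5-fold and 2 of 15183 unchanged, over 15380 genes. Far fewer genes were changed there than the 52.0% called in the data. The adjustment was therefore stricter, and these shares do not carry over to the data.

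Genes named are Zhx1, all mitochondrial members, the 4 nuclear members of each complex with the smallest adjusted p, the 6 largest rises and falls among called members with a mean of at least 100, the isoform pairs, members on chromosome 11, and up to 3 genes per list with the smallest adjusted p. Other genes were named after their values were seen. One member is not reported here by name.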

Additional observations from a re-analysis of the deposited data

How the results depend on the processing

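Under every alternative run, mt-Nd1, mt-Nd2, mt-Nd3, mt-Nd4, mt-Nd5, mt-Nd6 and mt-Cytb stayed called lower. Of 1945 values of single members under alternatives, 1866 kept their direction and side of the threshold, 38 lost a call, 40 gained one and 1 changed sign with a call, mt-Co3 with its copy added and without 46C-Ctrl 2 (0.17). Quantile normalization gave 27 members higher (all nuclear), 0 mitochondrial members higher, and medians of 0.20, 0.30, 0.28, 0.12 and 0.10 for complexes I to V. The cause was not tested. It also moved the split of called members from 17 higher and 12 lower to 27 and 10. Without trend 0 mitochondrial members were higher, and with copies summed and 46C-Ctrl 2 left out 2 were higher. Without chromosome 11 the complex III median was 0.046. With the mean of log2 values in place of sums, the log2 change was -0.51 for mitochondrial members (-0.23 for their summed share) and -0.62 for the ratio to nuclear members (-0.30 for sums).

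Leaving out 1 library gave 11 (without 46C-Ctrl 1) to 18 members higher, 11 to 17 nuclear members higher, 4 to 7 (without 46C-Ctrl 1) nuclear members lower, and 0 (without 46C-Ctrl 1 or Zhx1-KO 1) to 2 (without Zhx1-KO 3) mitochondrial members higher. The summed mitochondrial share changed by -0.34 to 0.02 on the log2 scale, the latter without 46C-Ctrl 2.

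The replicate numbers are shared by the groups but do not pair the libraries, since deviations from the group means correlated at 0.00419, -0.069 and 0.000587 for numbers 1 to 3. With the number as a block 15 members were higher and 13 lower, against 17 and 12. Depth limits Ndufs3, Atp5e, Cox7a1 and Ndufa4l2 most, whose normalised counts were under 100 in every library.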

Other observations

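The library 46C-Ctrl 2 was the highest of the 3 control libraries for 12 of 13 mitochondrial members, and its median log2 difference from the mean of the other two was 0.34 for these, 0.21 for the 7 without a listed copy and -0.023 for all genes tested. Of 80 nuclear members it was the highest for 41, and of all 15372 genes tested for 5034. Its median difference over the nuclear members was 0.030, against 0.031 for 46C-Ctrl 3 and -0.076 for 46C-Ctrl 1. The nuclear members were divided at the median length of their first listed transcript. Among the 38 shorter ones the median difference of 46C-Ctrl 2 was 0.11, and among the 39 longer ones it was 0.0047. Atp5md (1078, 1805 and 1265 normalised counts in 46C-Ctrl), Atp5j2 (887, 1595 and 900), Uqcrb (886, 1384 and 1066) and Ndufa5 (229, 444 and 327) are examples, chosen after their values were seen. The other 5 libraries had medians from -0.13 to 0.10 for the shorter nuclear members against the others of their group, so the size for 46C-Ctrl 2 was not unusual. Over the 440 protein-coding genes tested with transcripts as short, the median for 46C-Ctrl 2 was 0.029.

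Ndufs3, a core subunit of complex I, had few reads, with 46.8, 49.7 and 6.33 normalised counts in 46C-Ctrl against 52.4, 34.4 and 51.9 in those labelled Zhx1-KO. The reason was not tested.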
